A study of Mus musculus with 52 samples.

Results

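The comparison set 4 libraries of female against 4 of male Q175 mice, 8 of the 52 libraries of the series, and asked which microRNA (miRNA) precursors differ between the gonadal white fat of Q175 females and that of Q175 males. The libraries were taken by the genotype and sex in their labels. All were from mice that were C57BL/6, aged 6 months, heterozygous for a huntingtin knock-in allele named for a CAG repeat of 175, and housed with other Q175 mice. Wild-type mice (WT, 3 females and 4 males) and heterozygous Q20 mice (4 females and 4 males), both 6 months old, of the same strain and housed together, served as further sets in which the same female and male fat was compared. The other 4 genotypes of the series, Q80, Q92, Q111 and Q140, enter only an alternative fit that pools the spread of all libraries. The Q175 allele places an expanded CAG repeat in the mouse's own huntingtin gene and models Huntington's disease.

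miRNAs are short RNAs that guide Argonaute proteins to messenger RNAs and repress them. They are cut from hairpin precursors by the enzymes Drosha and Dicer. A count per precursor, as deposited here, does not tell the 2 arms of a hairpin apart. Gonadal fat is the visceral depot around the ovaries and uterus in female mice (periovarian) and along the epididymis in male mice (epididymal), and miRNA levels in fat are known to differ with depot and adiposity. The labels give the tissue as gonadal white fat and the sex of the mouse. Sex and depot therefore cannot be told apart in any value below. The identifiers in the labels also carry one code in all 4 Q175 females and another in all 4 males, and what the code stands for is not given, so it too cannot be told apart from sex. In bulk tissue, fewer cells of a type and less RNA per cell cannot be told apart either.

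Precursors are identified by miRBase accessions, and 0 of the 1187 accessions could be paired with a miRNA name in the sources used here. No miRNA name, position, sequence or role is therefore given, and marker miRNAs of fat or of other tissues could not be looked up. For each comparison up to 4 accessions are printed, 2 in each direction, and the other precursors are described by number, level and range.

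Total estimated counts in Q175 females were 3514717, 1812067, 4499038 and 3791098 in replicates 1 to 4, against 4592043, 4284793, 3961960 and 4480301 in Q175 males. The mean total was 3404230 ± 1139512 in females and 4329774 ± 276136 in males (SD, n = 4 each; exact permutation test, 2-sided, p = 0.143). All Q175 and WT libraries came from lane 5 of one series of library numbers, and the Q20 libraries came from other lanes of another series. In Q20 the lanes were not balanced between the sexes. Libraries WT male replicate 3 and Q20 male replicate 2 stood apart from the other males of their groups in several of the precursors described below. Fits of WT or Q20 that rest on them are also given without them. Both were picked on their levels in these same precursors, which by itself shifts the values without them. The p-values of those fits are therefore descriptive only.

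Female and male Q175 fat differed in many precursors, with small rises in females and some very large falls. With edgeR's quasi-likelihood test and Benjamini-Hochberg adjustment, 80 of 301 precursors (26.6%) passed an adjusted p of 0.05. Of these, 45 (15%) were higher and 35 (11.6%) were lower in females. The higher set moved by small amounts: its median absolute log2 fold change was 0.81, and 13 of 45 moved by more than 1 on the log2 scale. The lower set held the large differences, with a median absolute log2 fold change of 1.82 and 22 of 35 beyond 1. Over all 301 precursors the median absolute log2 fold change was 0.32. The 9 precursors with an absolute fitted log2 fold change above 4 were all lower in females, and 5 of them exceeded 6. Of those 5, 2 passed the filter on low counts through the males alone, 1 of them at 0 counts in every female, so their fitted sizes are not measured folds. DESeq2's Wald test gave 45 higher and 38 lower, and a fit that pooled the spread of all 52 libraries gave 23 calls, 15 higher and 8 lower.

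**Figure D1:**
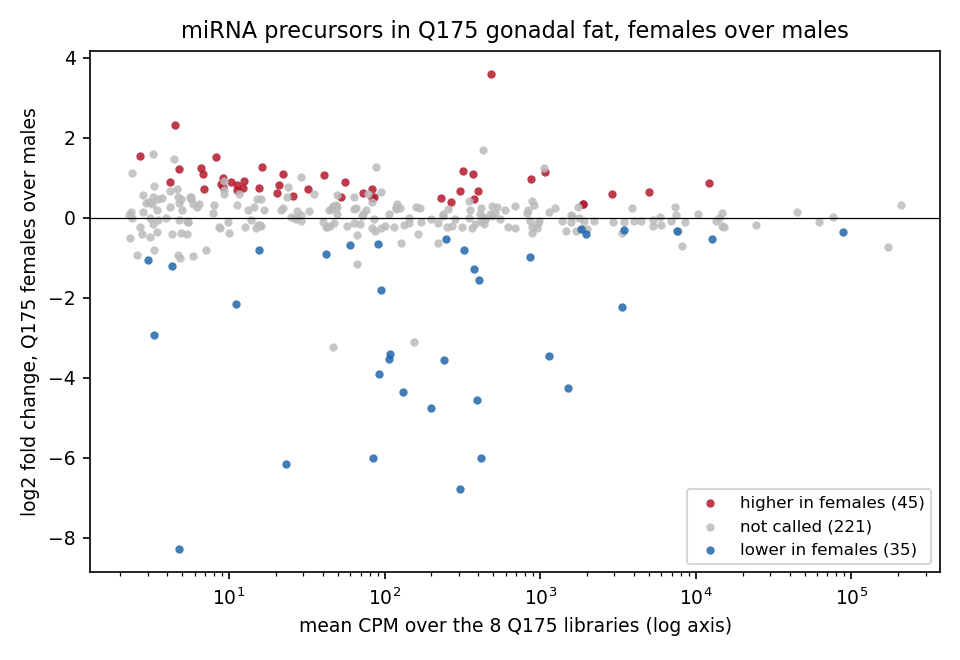
Each point is 1 of the 301 tested precursors. The x axis is the mean level in CPM (counts scaled to library size) over the 8 Q175 libraries on a log axis, and the y axis is the log2 fold change, Q175 females over Q175 males. The 45 precursors higher in females lie mostly between 0 and 1.5, while 17 of the 35 lower ones lie below -2, and levels span several orders of magnitude in both sets.

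The direction held library by library. The groups did not overlap in 89 of 301 precursors (29.6%), with every female above every male in 47 (15.6%) and every female below every male in 42 (14%). Groups were free of overlap in 42 of the 45 precursors called higher and in 34 of the 35 called lower, which the calls themselves favour. In 13 of the 221 precursors without a call the groups did not overlap either. Of the 301, 4 passed the filter on low counts through the males alone, 3 of them called lower, and this favours a lack of overlap. Among the 246 precursors with at least 10 counts in every library, 42 were called higher and 26 lower. The median absolute log2 difference between a female and a male library was 0.38 (range 0.27 to 0.50 over 16 pairs), between 2 female libraries 0.27 (0.14 to 0.35, 6 pairs) and between 2 male libraries 0.25 (0.23 to 0.29, 6 pairs).

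MI0000553 had the largest rise in females. It stood at 816, 815, 775 and 1172 CPM in Q175 females 1 to 4, against 60.4, 97.7, 55.2 and 81.2 CPM in Q175 males. Every female lay far above every male. The means were 894 ± 186 CPM in females and 73.6 ± 19.6 CPM in males (SD, n = 4 each), a 12.03-fold difference (log2 3.59, SE 0.24, edgeR adjusted p = 1.2e-05).

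MI0004601 rose by less but with little spread. Its levels were 23.9, 22.6, 21.1 and 24.5 CPM in the females, against 8.74, 10.01, 8.56 and 10.7 CPM in the males. The groups did not overlap, and the 4 libraries of each sex lay close together. Means were 23.01 ± 1.52 CPM in females and 9.49 ± 1.012 CPM in males (SD, n = 4 each), a 2.41-fold difference (log2 1.27, SE 0.15, edgeR adjusted p = 0.00054).

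The remaining higher precursors ran from scarce to abundant. Among the 13 that were higher by more than 1 on the log2 scale, female means ran from 4.01 to 1492 CPM and male means from 1.33 to 669 CPM. All 13 were free of overlap. Among the 32 with smaller rises, the highest female mean was 15841 CPM, against 8563 CPM in males. All 45 together made up 3.69% ± 0.18 of a female library and 2.16% ± 0.24 of a male library in CPM (SD, n = 4 each). A pair of the 45 held identical values in all 8 libraries, and which of the pair the calls belong to is uncertain.

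MI0000792 was among the precursors that fell most. It had 3.68, 4.84, 7.98 and 5.04 CPM in Q175 females, against 1503, 264, 295 and 363 CPM in Q175 males. Male replicate 1 was by far the highest male, and the lowest male lay far above the highest female. Means were 5.38 ± 1.83 CPM in females and 606 ± 599 CPM in males (SD, n = 4 each), a 109-fold lower level in females (log2 -6.77, SE 0.77, edgeR adjusted p = 0.0011). Without Q175 male replicate 1 it was 55.6-fold lower in females (log2 -5.80, edgeR adjusted p = 3.8e-06). Leaving out the highest male by itself shrinks the spread, so that p is descriptive only.

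MI0000715 was close to the detection limit in females. It had 3, 0, 0 and 6 counts in Q175 females 1 to 4, against 509, 40, 182 and 125 counts in Q175 males. In CPM these were 0.788, 0, 0 and 1.44 in females, against 101, 10.5, 41.0 and 30.3 in males. The groups did not overlap, and male replicate 1 was again the highest. It passed the filter on low counts through the males alone and so had to differ, and no fold or test is given for it. Of the 301 precursors, 4 passed in this way, of which 3 were called lower. No precursor passed through the females alone.

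**Figure D2:**
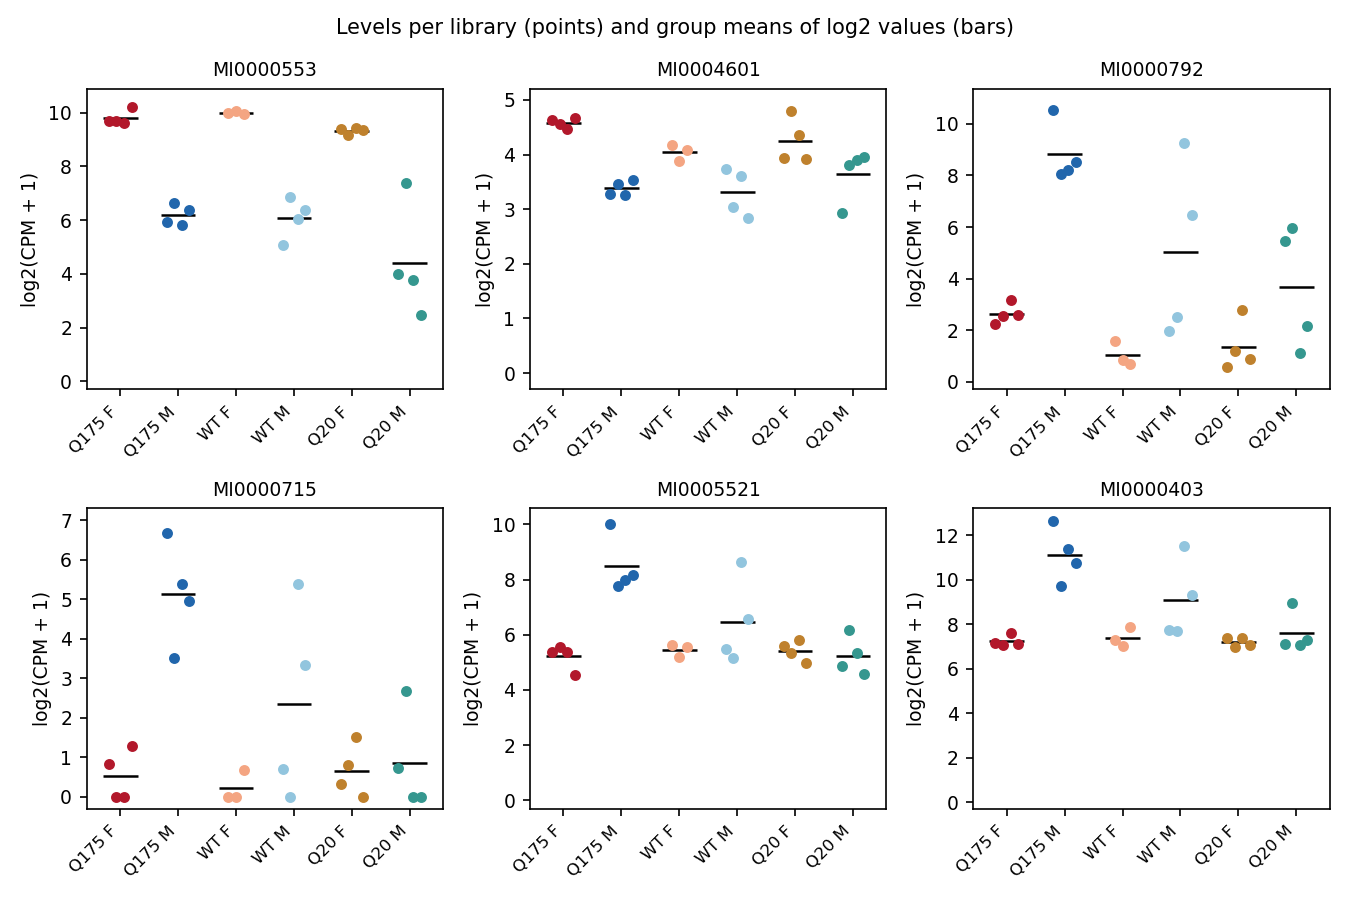
Levels of 6 precursors in the 23 libraries of Q175, WT and Q20, females (F) and males (M), as log2(CPM + 1). Points are libraries and bars are the means of the log2 values. Q175 females and males do not overlap in any of the 6 panels, while single WT and Q20 males, such as WT male replicate 3, lie far from the others of their group. The 6 were picked on calls from these same values, which favours the lack of overlap in Q175.

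The 9 precursors that fell by more than 4 on the log2 scale summed to between 191 and 272 CPM in the 4 Q175 females, against 3759 to 10879 CPM in the 4 males. Single precursors among them averaged from 0 to 151 CPM in females and from 9.52 to 2885 CPM in males. The 8 precursors that fell by 2 to 4 summed to between 1361 and 1587 CPM in females and 6390 to 13275 CPM in males. At the other end, the 13 that fell by less than 1 included the third most abundant precursor of Q175 fat, at 76212 to 80325 CPM in females and 95028 to 106887 CPM in males (log2 -0.35, SE 0.09, edgeR adjusted p = 0.018). The other four of the 5 most abundant precursors were not called. All 35 together made up 10.5% ± 0.16 of a female library and 14.9% ± 0.79 of a male library in CPM (SD, n = 4 each).

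A further pair of precursors had a log2 fold change below -2 without passing the test. The first stood at 11.0, 11.3, 7.37 and 101 CPM in Q175 females and at 125, 588, 124 and 266 CPM in Q175 males (log2 -3.11, SE 1.001, edgeR adjusted p = 0.054). Its levels did not overlap between the sexes, although female replicate 4 lay near the lowest males. The second stood at 2.63, 5.37, 3.89 and 24.2 CPM in females and at 5.17, 197, 10.4 and 123 CPM in males (log2 -3.23, SE 1.28, edgeR adjusted p = 0.11). In this one the groups overlapped, and female replicate 4 was again the highest female.

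Raw detection ran in the same direction, before library depth was taken into account. Of all 1187 precursors, 708 had a count in at least 1 Q175 female and 746 in at least 1 Q175 male. A count in every male and none in any female was found for 12 precursors, and the reverse for 0. One of the 12 had 106, 19, 34 and 18 counts in males 1 to 4 and 0 in every female. That precursor was picked for this pattern and so had to differ, and no fold is given for it. A library held 555, 476, 571 and 554 precursors with a count in females, against 604, 578, 576 and 580 in males, with no overlap (exact permutation test, 2-sided, p = 0.029, the smallest that 4 against 4 allows; 0.086 when adjusted over the 3 library measures tested). Totals overlapped between the sexes, and female replicate 2 was the shallowest library. Thinned to the smallest total of 1812067, the expected numbers were 476 to 485 in females and 481 to 509 in males (exact permutation p = 0.29).

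Precursors lower in females varied between the male libraries. For the 35 lower precursors the SD of log2(CPM + 1) was 0.25 across the females and 0.52 across the males, taken as the median precursor. For the 45 higher ones it was 0.20 across females and 0.21 across males. Over all 301 it was 0.24 across females and 0.23 across males. The SD exceeded 1 in 2 of the 35 lower precursors in females and in 10 of 35 in males. Over all 301 it did so in 11 in females and in 14 in males. The added 1 compresses spread near 0 CPM, where some of the lower precursors lay in females.

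The 17 precursors that fell by more than 2 split by the male library in which they were highest. Male replicate 1 was the highest in 11 of them. These 11 summed to 21159 CPM in male replicate 1, 3948 in replicate 2, 8668 in replicate 3 and 7641 in replicate 4. Another 4 were highest in male replicate 2, where they summed to 5694 CPM, with 1901, 1028 and 4165 CPM in replicates 1, 3 and 4. The other two were highest in male replicate 3. The order of the males thus differed between the sets: replicate 2 was the lowest male for the sum of the 11 and the highest for the sum of the 4. The sets were formed on these values, so this is a description with no test.

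**Figure D3:**
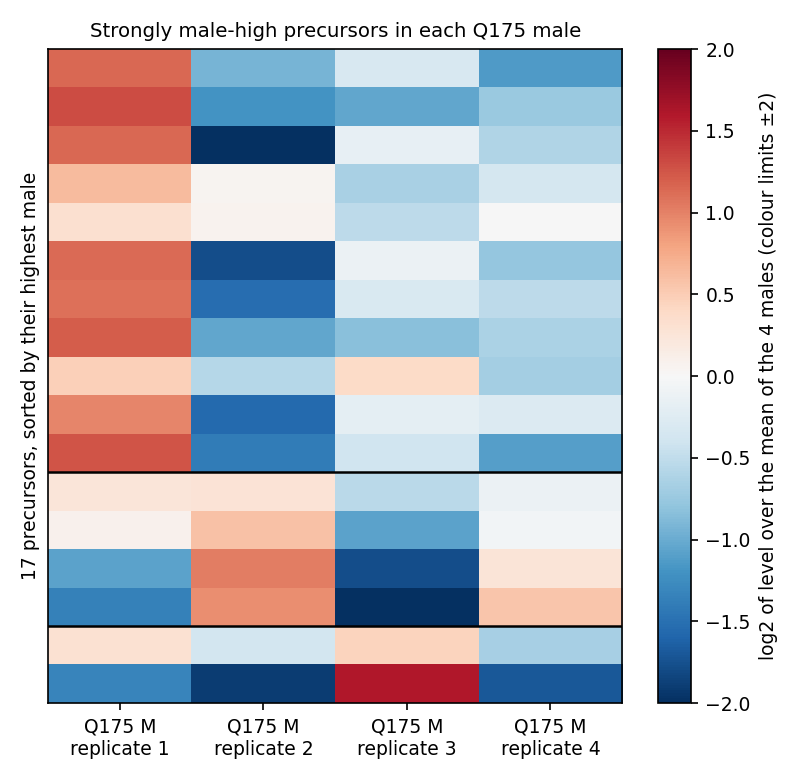
The 17 precursors lower in Q175 females by more than 2 on the log2 scale, 1 per row, in the 4 Q175 males. Colour gives the log2 of the level over the mean of the 4 males, and lines part rows by their highest male. The top 11 rows are highest in replicate 1, the next 4 in replicate 2 and the last 2 in replicate 3.

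The same sex comparison in WT and Q20 fat asked which of these differences were found outside Q175. In WT, edgeR called 23 of 320 precursors (7.19%), with 16 (5%) above and 7 (2.19%) below the males in WT females. Limma on the RPKM values gave 9 higher and 8 lower. In Q20, edgeR called 14 of 297 (4.71%), with 7 (2.36%) higher and 7 (2.36%) lower in females. Limma on the RPKM values, where the median Q20 log2 fold change was 0.26 against -0.04 with edgeR, gave 11 higher and 2 lower. The WT count was 14 without WT female replicate 1, 10 without WT female replicate 2, 15 without WT male replicate 4 and 21 without WT male replicate 3. The Q20 count was 35 without Q20 male replicate 2 and 0 without Q20 female replicate 3 or 4. Other tests gave other counts as well: WT had 12 calls with the replicate number as a block and 4 with the spread of all 52 libraries, and Q20 had 2 with the block and 24 with DESeq2. The Q20 count was 7, 6, 4 and 8 without Q20 female replicate 1, female replicate 2, male replicate 3 or male replicate 4. Of the 45 precursors higher in Q175 females, all were tested in WT and 44 lay on the same side there, with a median log2 fold change of 0.81 in Q175 and 0.64 in WT. Of the 35 lower ones, 32 were tested in WT and 30 lay on the same side, with medians of -1.41 in Q175 and -0.80 in WT. In Q20, 38 of 44 higher and 25 of 28 lower precursors kept their side, with medians of 0.43 and -0.74 in Q20. The Q175 medians of these 44 and 28 were 0.80 and -1.24. Called precursors not tested in WT or Q20 fell below the filter on low counts there and are not in these medians. Over all 35 lower precursors the Q175 median was -1.82. Without WT male replicate 3 the WT medians were 0.61 for the higher set (43 of 45 on the same side) and -0.47 for the lower set (26 of 32). Without Q20 male replicate 2 the Q20 medians were 0.58 (37 of 44) and -0.15 (18 of 28). Both sets were chosen on Q175 values, which enlarges their Q175 medians.

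Called lists overlapped in part. The 8 precursors called higher in both Q175 and WT were 17.8% of the Q175 list and 50% of the WT list, and the 4 called lower in both were 11.4% and 57.1%. For Q20, 3 higher precursors were shared (6.67% of the Q175 list and 42.9% of the Q20 list) and 4 lower ones (11.4% and 57.1%). Of the 16 precursors called higher in WT, 13 were tested in Q175, and of the 7 called higher in Q20, 3 were. The others did not pass the filter on low counts in Q175 and could not be shared. All 7 called lower in WT and all 7 called lower in Q20 were tested in Q175. Every tested member of these lists lay on the same side in Q175. None was called in opposite directions. Across precursors, log2 fold changes in Q175 and WT had Pearson's r = 0.836 and Spearman's rho = 0.733 (298 precursors), and those in Q175 and Q20 r = 0.798 and rho = 0.605 (275 precursors). Without WT male replicate 3 they were r = 0.643 and rho = 0.633 (298 precursors), and without Q20 male replicate 2 they were r = 0.382 and rho = 0.492 (272 precursors). Precursors of a library share its depth and composition and are not independent, so no p is given.

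**Figure D4:**
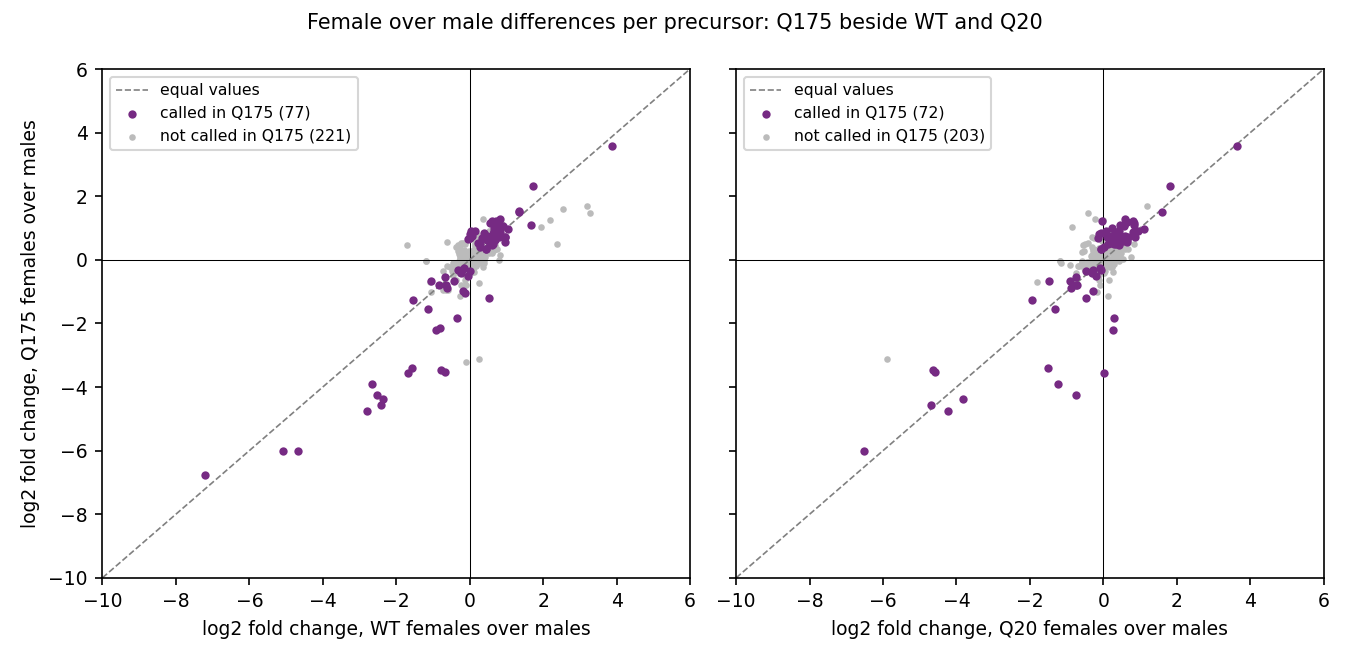
Log2 fold change of females over males for each precursor, in Q175 on the y axis and in WT (left) or Q20 (right) on the x axis. Purple points passed the test in Q175, and the dashed line marks equal values. Most precursors higher in Q175 females lie near the line, and many of those far below 0 in Q175 lie nearer to 0 in WT and Q20.

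MI0000553 was higher in every female than in every male library of all 3 genotypes. WT females had 1002, 1082 and 980 CPM, against 33.1, 115, 64.4 and 81.5 CPM in WT males (log2 3.86, SE 0.39, edgeR adjusted p = 0.00082). Q20 females had 668, 573, 693 and 653 CPM, against 14.9, 165, 12.5 and 4.61 CPM in Q20 males (log2 3.64, SE 1.21, edgeR adjusted p = 0.20). Without Q20 male replicate 2 the Q20 value was 5.87 (SE 0.33, edgeR adjusted p = 8.8e-07), and without WT male replicate 3 the WT value was 3.83 (SE 0.37, edgeR adjusted p = 0.00020). Q20 male replicate 2 was the highest of all males, and leaving it out by itself enlarges the Q20 value. MI0004601 had a log2 fold change of 0.82 in WT (SE 0.27, edgeR adjusted p = 0.11) and 0.58 in Q20 (SE 0.32, edgeR adjusted p = 0.38). Its groups were free of overlap in WT but overlapped in Q20 (females 14.2 to 26.9 CPM, males 6.62 to 14.6 CPM). More broadly, the 13 precursors higher by more than 1 in Q175 females summed to 3047 to 4399 CPM in Q175 females and 1075 to 1435 CPM in Q175 males. The sums were 3127 to 3527 CPM in WT females and 1560 to 1645 CPM in WT males, and 2827 to 3097 CPM in Q20 females and 1122 to 1645 CPM in Q20 males.

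The 17 precursors that fell by more than 2 were followed across the other genotypes. They were picked on Q175 values, which fixes that Q175 males stand high in them, and no difference between genotypes is read from the counts of males. They summed to 1785, 1635, 1728 and 1621 CPM in Q175 females, against 24154, 10333, 11415 and 12386 CPM in Q175 males. In WT they summed to 1460, 1533 and 1553 CPM in females, against 1520, 1422, 11028 and 2804 CPM in males. In Q20 the sums were 1519, 1928, 1905 and 1650 CPM in females, against 1474, 17698, 1535 and 1536 CPM in males. All 4 Q175 males, 2 of 4 WT males (replicates 3 and 4) and 1 of 4 Q20 males (replicate 2) lay above every female of their genotype. WT male replicate 3 exceeded every Q175 female in 17 of the 17 precursors, WT male replicate 4 in 15 and Q20 male replicate 2 in 14. The other WT and Q20 males did so in 1 to 4. Among the 17 are 2 that fell by more than 4 and passed the filter on low counts through the Q175 males alone. In 1 of them every Q175 female had 0 counts. For these a few counts are enough to exceed every Q175 female.

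**Figure D5:**
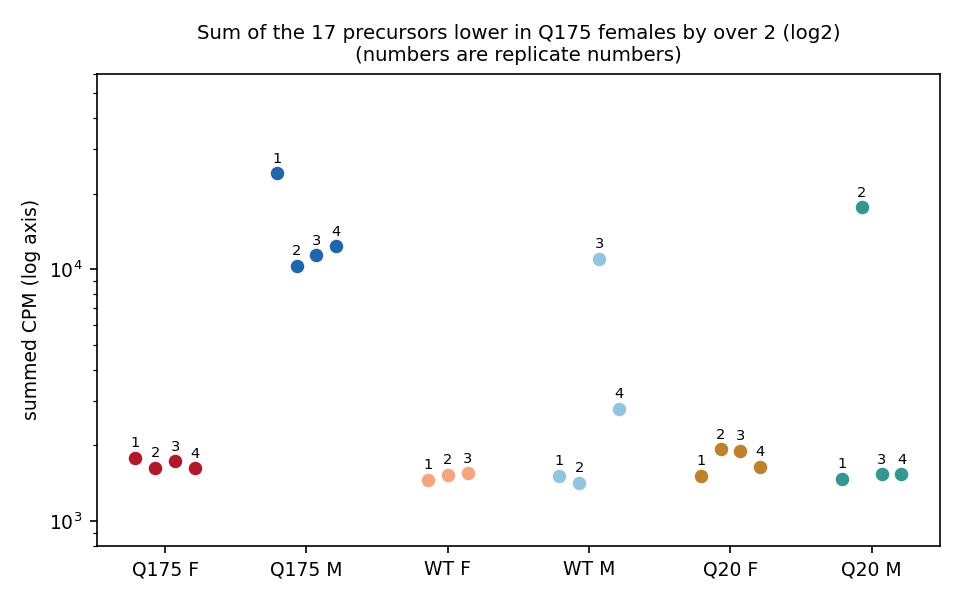
Summed CPM (log axis) of the 17 precursors lower in Q175 females by more than 2 on the log2 scale, in each library of 6 groups, females (F) and males (M). Numbers are replicate numbers. The 4 Q175 males lie at 10333 or above, WT males spread from 1422 to 11028, and 3 of 4 Q20 males lie among the females.

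MI0000792, one of the 17, varied widely between males of WT and Q20. Its WT levels were 1.96, 0.790 and 0.614 CPM in females, against 2.92, 4.68, 605 and 86.8 CPM in males (log2 -7.20, SE 2.55, edgeR adjusted p = 0.18). Without WT male replicate 3 the value was -4.66 (SE 1.66, edgeR adjusted p = 0.22). In Q20 it had 0.495, 1.27, 5.96 and 0.819 CPM in females, against 43.0, 60.7, 1.17 and 3.46 CPM in males. All 4 WT males lay above the WT females, 2 of them narrowly, and Q20 male replicates 1 and 2 lay above the Q20 females.

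The 2 larger sets within the 17 were weighted differently in the high males of the other genotypes. The 11 precursors highest in Q175 male replicate 1 summed to 9822 CPM in WT male replicate 3 and to 3387 CPM in Q20 male replicate 2. The 4 precursors highest in Q175 male replicate 2 summed to 797 CPM in WT male replicate 3 and to 11189 CPM in Q20 male replicate 2. The other WT males summed to between 1222 and 2503 CPM for the 11 and between 90.8 and 182 CPM for the 4. The other Q20 males summed to between 1226 and 1369 CPM for the 11 and between 82.6 and 108 CPM for the 4. Both libraries were thus the highest of their group in both sets.

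Whether the female to male difference itself differed between genotypes was tested with interaction terms. Against WT, sequenced in the same lane but housed apart, 0 of 339 precursors (0%) passed edgeR's test, 17 had an unadjusted p below 0.05, and DESeq2 and limma gave 0 calls each. Without WT male replicate 3 there were 5 calls, all with a more negative female to male difference in Q175. The precursors called lower in Q175 females had a median log2 interaction of -0.78 (28 of 35 below 0), those called higher one of 0.22 (31 of 45 above 0) and all 339 one of -0.01, again with sets chosen on Q175 values. Without WT male replicate 3 these medians were -1.85 (30 of 35 below 0), 0.21 (30 of 45 above 0) and -0.02. That library was left out for its high levels in precursors of the lower set, which by itself makes their interaction more negative.

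Against Q20, 4 of 331 precursors (1.21%) passed, all with a more negative female to male difference in Q175, and all 4 also called lower in Q175 females. Genotype cannot be told apart here from lane and housing, although each sex difference was taken within its own genotype. Within Q20, female replicate 4 and male replicates 1 and 2 were in lane 1 and the other libraries in lane 3. The Q20 sex difference can therefore carry a lane difference as well. MI0005521 had 41.0, 46.2, 40.9 and 22.6 CPM in Q175 females, against 1030, 216, 250 and 289 CPM in Q175 males (log2 -3.56, SE 0.59, edgeR adjusted p = 0.0052). In Q20 it had 46.8, 39.9, 55.2 and 30.3 CPM in females, against 28.5, 70.6, 39.9 and 22.7 CPM in males (log2 0.02, SE 0.35). Q175 males lay above all other libraries of both genotypes, and Q20 females and males overlapped. The log2 difference between the genotypes was -3.69 (SE 0.68, edgeR adjusted p = 0.015). That call was lost without Q175 female replicate 1 (log2 -3.79, edgeR adjusted p = 0.056), Q20 female replicate 2 (-3.68, 0.055), Q20 male replicate 1 (-3.62, 0.065) or Q20 male replicate 3 (-3.68, 0.053). It was also lost with no filter on low counts (edgeR adjusted p = 0.098) and with the spread of all 52 libraries (edgeR adjusted p = 0.9999). Without Q175 male replicate 1 the log2 difference was -2.91 (edgeR adjusted p = 0.0022). That library was the highest male in MI0005521, and leaving it out by itself shrinks the spread, so this p is descriptive only.

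MI0000403 had 142, 132, 193 and 136 CPM in Q175 females, against 6337, 843, 2665 and 1695 CPM in Q175 males (log2 -4.24, SE 0.61, edgeR adjusted p = 0.0026). In Q20 it had 163, 125, 163 and 131 CPM in females, against 135, 500, 134 and 155 CPM in males (log2 -0.74, SE 0.44, edgeR adjusted p = 0.44; 0.03, SE 0.15 and adjusted p = 0.94 without Q20 male replicate 2). Q20 male replicate 2 was the one Q20 male above the Q20 females. The log2 difference between the genotypes was -3.63 (SE 0.77, edgeR adjusted p = 0.029). The call held in 4 of 16 single omissions, those of Q175 male replicates 1, 2 and 4 and of Q20 male replicate 2. In the other 12 the edgeR adjusted p lay between 0.051 and 0.099, and over all 16 the log2 difference lay between -4.37 (without Q20 male replicate 2) and -2.94 (without Q175 male replicate 1). The call was also lost with the replicate number as a block (edgeR adjusted p = 0.15), with no filter on low counts (edgeR adjusted p = 0.14) and with the spread of all 52 libraries (edgeR adjusted p = 0.9999).

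In WT both precursors were high in single males. MI0005521 had 48.5, 35.8 and 46.4 CPM in WT females, against 43.3, 34.3, 399 and 93.4 CPM in WT males, and its interaction of Q175 with WT was -1.88 (SE 1.08, unadjusted p = 0.11, edgeR adjusted p = 0.81). It was -3.26 without WT male replicate 3 (SE 0.77, edgeR adjusted p = 0.055). MI0000403 had 158, 128 and 233 CPM in WT females, against 215.2, 207, 2953 and 636 CPM in WT males, with an interaction of -1.73 (SE 1.17, unadjusted p = 0.16, edgeR adjusted p = 0.85). That was -3.30 without WT male replicate 3 (SE 0.84, edgeR adjusted p = 0.072). WT male replicates 3 and 4 were the high ones in both. The count of 4 calls against Q20 ranged from 0 to 17 when single libraries were left out. It was 17 without Q20 male replicate 2, and 0 without Q175 female replicate 1, Q20 female replicate 2, Q20 male replicate 1 or Q20 male replicate 3. It was 2 without Q175 female replicate 2, Q175 male replicate 3, Q20 female replicate 4 or Q20 male replicate 4. Each library has an identifier of its own in the labels, but these do not say outright that each is a separate animal, so p-values throughout may reflect library-to-library spread alone, which may be technical.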

How the data were processed

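Small RNA from gonadal white fat was sequenced from Illumina libraries after miRNeasy extraction and enrichment, per the labels' protocols. The submitters' processing notes name CASAVA 1.8.2; for the aligner, build, miRBase release and counter, the step is not given in the sources used here. Estimated counts per precursor were deposited by the authors (1187 precursors, 52 libraries; 89.1% of values whole within 0.0001). The authors also made and deposited RPKM values, which divide each estimated count by precursor length and by the total of the library, per the file headers and the ratio of both tables. Estimated counts were rounded to whole numbers. Columns were matched by the library identifier in the labels; 0 columns lacked a sample.

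Differences were tested with edgeR 4.0.16 in R 4.3.3 (robust quasi-likelihood F test, TMM, 2-sided, Benjamini-Hochberg adjustment), keeping precursors that reached 10 counts in 4 or more libraries of the fit (3 in fits with WT). Standard errors are the log2 fold change over the square root of F. Printed CPM values use TMM library sizes over the 23 Q175, WT and Q20 libraries. Named precursors are those called, with a mean of at least 10 CPM in Q175, with the largest log2 fold change in each direction; the rule took more, with names, and was shortened to 2 each way because the 20 miRNA lists with 219 members matched 0 accessions. The comparison, lists and tests were chosen with earlier results of these data known. Alternatives were DESeq2 1.42.0 and its size factors, limma 3.58.1 on log2(RPKM + 1), no filter, a minimum of 50 counts, removal of the 5 most abundant precursors, the replicate block, fits over more libraries each library left out and, added after seeing the data, WT and Q20 values without the libraries that stood apart. The tests were tested on simulated data.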

Additional observations from a re-analysis of the deposited data

Results flagged for a closer look

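In 38 tests of groups of 4, 1 library lay far from the other three (Dixon's gap ratio, 95% critical value) in 11. The critical value assumes independent, normally distributed values. The tests took library measures and levels of precursors picked on these data, in shared libraries, so the 11 are not set against a chance rate. Among Q175 libraries these were female replicate 4 for MI0000553 (1172 CPM), male replicate 1 for MI0000792 (1503 CPM) and MI0005521 (1030 CPM), and male replicate 1 for the number of precursors with a count (604). WT male replicate 3 was high in MI0000792 (605 CPM), MI0005521 (399 CPM) and MI0000403 (2953 CPM). Q20 male replicate 2 was high in MI0000553 (165 CPM), MI0000715 (5.46 CPM) and MI0000403 (500.3 CPM). Q20 female replicate 3 was high in MI0000792, at 5.96 CPM.

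The female to male difference was larger in Q175 than in Q20 for MI0005521, with a log2 interaction of -3.69, and for MI0000403, with -3.63, by edgeR's test of the interaction. Both calls were lost with no filter on low counts and with all 52 libraries; that of MI0005521 was lost in 4 of 16 single omissions and that of MI0000403 in 12 of 16 and under the replicate block. The Q20 libraries came from other lanes.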

How the results depend on the processing

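The count of 80 calls between Q175 females and males stayed within 1.5 times under 16 of 17 alternatives and was 23 with the spread of all 52 libraries; it ran from 56 to 72 with single libraries left out, at least 56 of them among the 80. MI0000553, MI0000792 and MI0004601 kept their calls under every alternative in which they were tested. With limma on log2(RPKM + 1) the median log2 fold change of all precursors in Q175 was 0.13, against 0.04 in the main fit. The interaction with WT gave 0 to 5 calls with single libraries left out. The interaction with Q20 gave 1 call with no filter, 0 with all 52 libraries and 0 to 17 with single libraries left out; MI0005521 lost its call in 4 and MI0000403 in 12 of these 16 omissions. WT gave 10 to 33 and Q20 0 to 35 calls with single libraries left out, WT 4 with all 52 libraries and Q20 24 with DESeq2's Wald test; the alternatives for WT and Q20 were chosen after seeing the data. The difference in detected precursors ran from -56.2 to -24.5 with single omissions, a design of 4 against 3 whose smallest exact permutation p is 0.057, and was -9.63 after thinning, also chosen after seeing the data. The difference in the share of the 5 most abundant precursors was -0.792 percentage points (62.1% ± 0.35 in females, 62.9% ± 4.98 in males; SD, n = 4 each; exact permutation p = 0.69). It ran from -2.36 to 0.884 percentage points and was positive (0.374 and 0.884) without male replicate 4 or 2. Why these values moved was not tested.

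With the replicate number as a block there were 64 calls in Q175, 0 in the interaction with WT, 3 in that with Q20, 12 in WT and 2 in Q20. Same-numbered Q175 females and males deviated from their group means with r between -0.09 and 0.14 in 4 pairs. Of the males 1 of 4, and of the females 2 of 4, were closest to the library of the other sex with their own number. No pairing by number was seen, but 4 pairs are too few to exclude one.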
